A study of Mus musculus with 9 samples.

Results

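Integrins and cadherins are the main receptors by which a cell holds on to the matrix and to its neighbours, and 43 of their genes were followed here across 9 arrays of muscle cells. The genes were chosen by symbol alone: every integrin alpha gene, integrin beta gene and numbered cadherin on the array, without Itga7, Itgb1, Itgam, Cdh15 and Cdh5. The rule itself uses no measured value, although it was set with earlier results of these data known. They were represented by 92 probes, and 40 of the 43 were among the 22706 genes that could be tested. Cdh8, Cdh17 and Cdh19 were not well above background on enough arrays to be tested, and 31 of the 40 tested members were well above background on all 9 arrays.

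The arrays compared cells of the lines iPax3 and iPax7, made from pluripotent stem cells, with adult satellite cells, the stem cells that reside along muscle fibres. Cells of both lines had been injected in vivo before re-isolation. The 3 iPax3 and 3 iPax7 samples were mononucleated cells from the tibialis anterior of 3-month-old mice of the strain labelled NSG/NSGmdx4cv, and the 3 satellite cell samples came from the tibialis anterior of 3-month-old Pax7-ZsGreen mice. Per the labels, 1500 cells were sorted from 3 mice per line in 3 independent experiments and their RNA was amplified. Neither the sorting gate, nor the clones behind each line, nor the sharing of mice among arrays is given by the labels, so p-values measure only the spread between these arrays. Re-isolated and satellite cells also differed in strain, in slide and in the day of scanning, which cannot be told apart from the cell source. All 3 iPax3 arrays and iPax7 replicate 1 lay on slide 1, and each satellite array lay on a slide of its own.

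An integrin is a pair of an alpha and a beta chain, each crossing the membrane once, and the pair decides which matrix protein is bound. Collagens, laminins and proteins with an Arg-Gly-Asp (RGD) motif, such as fibronectin, are bound by different alpha chains, and the tails of the beta chains connect to the actin cytoskeleton through talin, kindlins and paxillin. Classical cadherins bind the same or a related cadherin on the next cell in a calcium-dependent way and are anchored inside by catenins. In muscle, satellite cells sit between the fibre membrane, which they touch through cadherins, and the laminin-rich basement membrane, which they hold through integrins.

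Array values are log2 signals relative to the 75th percentile of the same array, so that a difference of 1 is a doubling, and levels are compared only within a probe. A member was called when its Benjamini-Hochberg adjusted p over all 22706 genes, from limma, was under 0.05. Of the 40 tested members, 1 was called for iPax3 against satellite cells, where 0.432% of all genes were called. The same count was 1 for iPax7 against satellite cells (0.533% of all genes) and 1 for both re-isolated groups together (1.04% of all genes). It was Itga11 in each, and the comparisons share the satellite arrays. Between iPax7 and iPax3, 0 members and 0% of all genes were called by limma, with 1 member and 931 genes (4.1%) at an unadjusted p under 0.05. The median difference of the tested members from satellite cells was -0.09 for both re-isolated groups together, beside -0.16 over all genes. Without satellite replicate 1 it was -0.64, beside -0.27 over all genes, and without satellite replicate 3 it was 0.15, beside -0.03. Neither shift reached 0.62, the SD of the members' array medians within groups.

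Marker genes of cell types also differed between the arrays. Markers of fibro-adipogenic progenitors and fibroblasts, the connective-tissue cells of muscle, were called higher in the re-isolated groups together for 8 of 10 genes. The share over all genes was 0.802%. The count was 4 to 8 over the alternative settings and 4 to 7 with an array left out. The summed linear level of these markers ran from 435 to 818 on iPax3 arrays, 603 to 1089 on iPax7 arrays and 36.9 to 93.5 on satellite arrays. Of 9 tested satellite and myogenic markers, 2 (Chrdl2 and Des) were called lower, beside 0.238% of all genes, and the sum ran from 38.5 to 50.7, from 33.6 to 69.6 and from 137 to 270. Of 8 pericyte and smooth muscle markers, 1 was called lower. No endothelial, glial, tenocyte or epithelial marker was called, although all 6 tested glial markers had negative differences. The endothelial sum ran from 5.16 to 7.16, from 8.95 to 64.0 and from 10.4 to 21.4. The satellite marker Pax7 was well above background in every group and differed by -4.94 ± 1.05 in re-isolated cells (adjusted p 0.0722). The part of cell make-up in the results on the members was not tested, and in such bulk samples fewer cells of a type and less RNA per cell cannot be told apart.

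Itga11, the alpha chain of a collagen receptor of mesenchymal cells, was the one member that rose. It read 1.32, 0.82 and 2.79 on the iPax3 arrays, 1.96, 2.21 and 1.86 on the iPax7 arrays, and -6.44, -6.26 and -4.65 on the satellite arrays. All 6 re-isolated arrays were well above background and all 3 satellite arrays were not, so the satellite value is only a bound. With each satellite array set to its dimmest signal that still passed the background flag, Itga11 was at least 119-fold higher in the re-isolated groups together, at least 105.3-fold higher in iPax3 and at least 136-fold higher in iPax7. The fitted difference was 7.42 ± 0.80 for iPax3 (SE; adjusted p 0.00647), 7.79 ± 0.80 for iPax7 (adjusted p 0.00462) and 7.60 ± 0.69 for both (adjusted p 0.00163). With normexp background correction the last was 4.05 (adjusted p 0.0147), which is smaller than the bound. The iPax3 call was lost with that correction (difference 3.87, adjusted p 0.0594) and with the slide as a random block (7.44, adjusted p 0.0626). The 2 re-isolated groups overlapped and differed by 0.37 ± 0.80.

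The promoter of Itga11 is shown because it belongs to the called member, and that of Itga1 because it is the other collagen-binding alpha chain whose arrays did not overlap between re-isolated and satellite cells. Each window runs from 250 bases before to 50 after the start of the gene, from RefSeq on GRCm38.p6, at chr9:62677605-62677904 on the plus strand for Itga11 and chr13:115101915-115102214 on the minus strand for Itga1, 5′ to 3′ along the gene. Capitals mark E-boxes (CANNTG), the letters that basic helix-loop-helix factors such as Myod1 and Twist can bind.
Itga11: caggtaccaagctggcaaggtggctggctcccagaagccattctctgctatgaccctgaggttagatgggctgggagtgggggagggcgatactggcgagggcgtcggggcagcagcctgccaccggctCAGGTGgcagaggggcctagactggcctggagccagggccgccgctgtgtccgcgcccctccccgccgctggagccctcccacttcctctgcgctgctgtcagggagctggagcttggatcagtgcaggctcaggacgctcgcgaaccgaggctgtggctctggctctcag
Itga1: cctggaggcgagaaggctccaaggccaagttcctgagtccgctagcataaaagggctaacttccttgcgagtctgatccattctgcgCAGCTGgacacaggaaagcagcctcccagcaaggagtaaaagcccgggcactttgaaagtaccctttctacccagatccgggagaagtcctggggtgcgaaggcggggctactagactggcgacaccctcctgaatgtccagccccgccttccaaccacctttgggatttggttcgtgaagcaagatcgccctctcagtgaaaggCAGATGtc
Such letters stood in 72.3% of all 32851 RefSeq windows of this length and in 26 of the 32 windows of the 28 members that the table held (81.25%). The other motifs searched, on both strands, were GGGCGG (35.7% of all windows, 11 of 32 member windows), TATAAA (13.6%, 0 of 32), CAGAC (49.6%, 20 of 32) and CCAAT (37.4%, 10 of 32). CAGAC and CCAAT can share letters with an E-box at their ends. A match is a description of the letters.

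The other collagen-binding alpha chains did not pass the test. Itga1, which pairs with the beta 1 chain and binds basement membrane collagen, read 1.57, 0.56 and 0.20 on the iPax3 arrays, 2.87, 1.58 and -0.17 on the iPax7 arrays, and -1.96, -1.15 and -1.13 on the satellite arrays. All re-isolated arrays lay above all satellite arrays, by 2.51 ± 0.76 on average (adjusted p 0.183). Itga2, a receptor for fibrillar collagen, read -6.07, -1.72 and -1.10, then -6.32, -1.07 and 1.5, then -8.05, -6.27 and -6.72 in the same order of groups. It was well above background on 2 iPax3 arrays, 2 iPax7 arrays and no satellite array, with a fitted difference of 4.55 ± 1.69 (adjusted p 0.257). The bound described for Itga11 gave 6.57-fold for the re-isolated groups together, which is smaller than the fitted difference. Itga10, a collagen receptor best known from cartilage, differed by -1.98 ± 1.82, with satellite arrays spread from -3.22 to 6.38. The class had positive differences for 3 of 4 genes, 1 of them called, and a median difference of 3.53 beside -0.16 over all genes. Itga11 and Itga2 were well above background on no satellite array, so they passed the filter only through the arrays where they are high. The count and the median are therefore no separate support for a difference of the class.

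**Figure D1:**
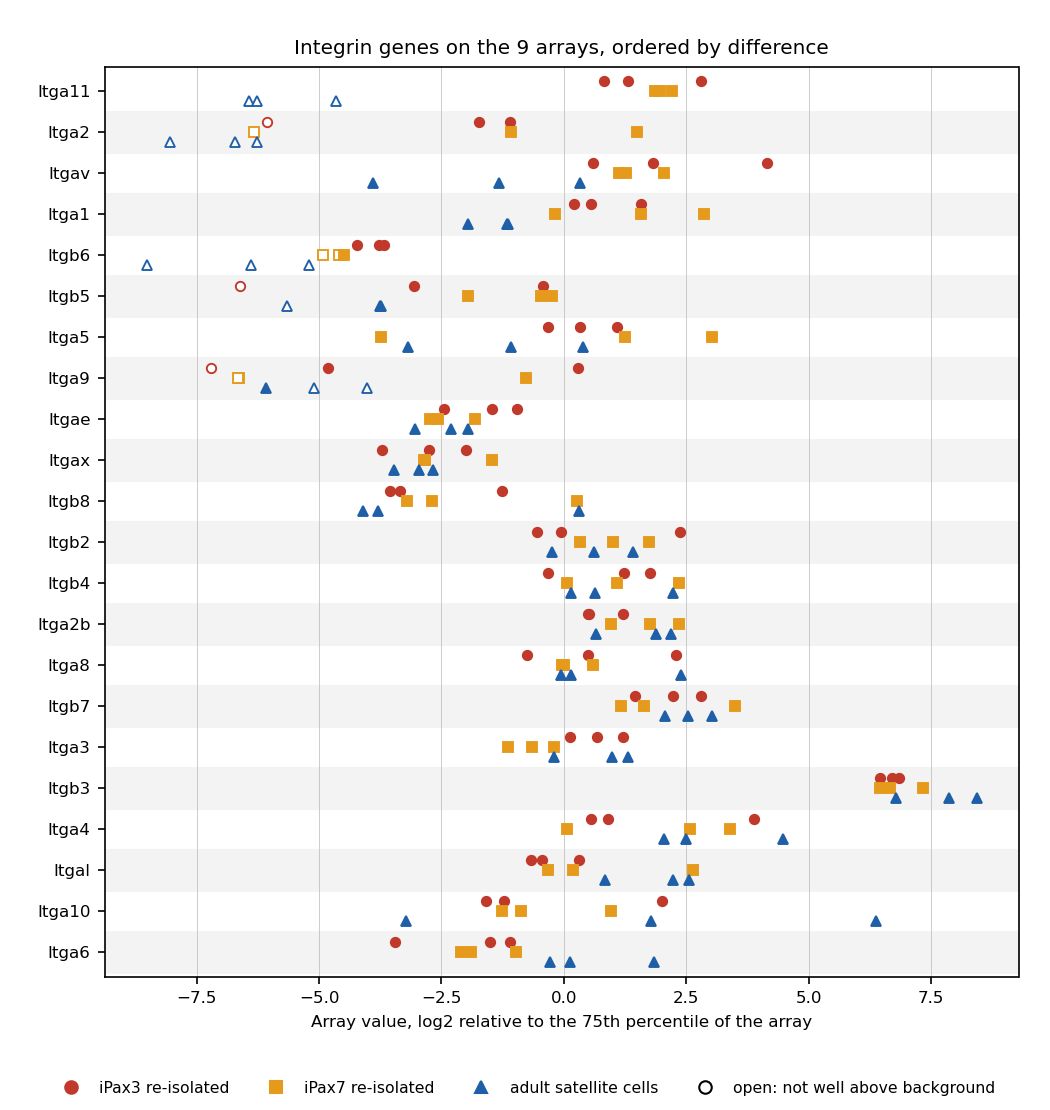
Values of the 22 tested integrin genes on the 9 arrays (x axis, log2 scale with the 75th percentile of each array at 0), ordered from the most positive to the most negative difference between re-isolated and satellite cells, with open symbols where the probe was not well above background. Itga11 has the 6 re-isolated arrays between 0.82 and 2.79 and the 3 satellite arrays, all open, between -6.44 and -4.65, while most other genes overlap between groups.

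Among the alpha chains that bind the RGD motif, Itgav came nearest to the collagen receptors. Itgav, whose chain pairs with several beta chains and binds vitronectin and latent TGF-beta, read 1.82, 0.59 and 4.15 on iPax3 arrays, 1.12, 1.28 and 2.05 on iPax7 arrays and -1.33, 0.34 and -3.90 on satellite arrays. The groups did not overlap, but iPax3 replicate 2 at 0.59 and satellite replicate 2 at 0.34 were close, and the difference of 3.47 ± 1.06 did not pass (adjusted p 0.187). Itga5, the fibronectin receptor chain, read 0.33, 1.08 and -0.32, then -3.73, 1.25 and 3.04, then -1.07, 0.39 and -3.19. Its groups overlapped fully, with iPax7 replicate 1 below every other array (difference 1.56 ± 1.41, adjusted p 0.624). Itga8, a receptor for nephronectin, read 0.50, -0.75 and 2.28, then -0.03, 0.00 and 0.60, then -0.05, 2.40 and 0.16. It showed 1 high array in iPax3 and 1 in satellite cells, and its difference was -0.40 ± 0.85. Itga2b, the platelet fibrinogen receptor chain, differed by -0.36 ± 0.63 and overlapped between groups.

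The laminin-binding alpha chains had negative differences for both of their 2 genes, and neither passed. Itga6, a laminin receptor chain found on many stem cells, read -1.10, -1.5 and -3.45 on iPax3 arrays, -0.98, -2.09 and -1.90 on iPax7 arrays and 0.14, 1.84 and -0.28 on satellite arrays. Every re-isolated array lay below every satellite array (difference -2.40 ± 0.77, adjusted p 0.203). Itga3, the chain of another laminin receptor, read 1.21, 0.69 and 0.13, then -0.20, -1.14 and -0.64, then -0.19, 1.32 and 0.99. All iPax7 arrays were below all iPax3 arrays (difference -1.34 ± 0.71, adjusted p 1), and iPax3 overlapped with satellite cells. Itga7, the laminin receptor chain typical of muscle and no member here, differed by -1.10 ± 0.59 (adjusted p 0.408).

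Itga4 and Itga9 share ligands such as VCAM-1 and fibronectin splice forms. Itga4 read 3.88, 0.91 and 0.56 on iPax3 arrays, 2.57, 0.07 and 3.39 on iPax7 arrays and 2.05, 2.49 and 4.48 on satellite arrays, with high and low arrays in both re-isolated groups (difference -1.11 ± 1.06, adjusted p 0.646). Itga9 read -4.81, -7.21 and 0.30, then -0.78, -6.63 and -6.66, then -6.07, -4.03 and -5.11. It was well above background on 4 of the 9 arrays, and iPax3 replicate 3 and iPax7 replicate 1 stood far above the rest (difference 0.77 ± 1.79).

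Alpha chains typical of leukocytes stayed near 0 difference or below. Itgal, a chain of the lymphocyte receptor LFA-1, read 0.32, -0.45 and -0.67 on iPax3 arrays, 2.63, -0.32 and 0.19 on iPax7 arrays and 0.85, 2.23 and 2.55 on satellite arrays. The iPax3 arrays lay below the satellite arrays (difference -2.14 ± 0.92, adjusted p 0.387), and iPax7 replicate 1 was above them. Itgae, found on intraepithelial T cells, and Itgax, the CD11c chain of dendritic cells, each differed by 0.43 between re-isolated and satellite cells, with SEs of 0.61 and 0.65. Of 10 leukocyte markers none was called, and their summed level ran from 4.62 to 6.80 on iPax3 arrays, 2.99 to 18.2 on iPax7 arrays and 5.44 to 12.8 on satellite arrays.

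None of the 7 integrin beta chains was called in any comparison. Itgb6, which with the alpha v chain binds latent TGF-beta in epithelia, read -3.67, -3.77 and -4.23 on iPax3 arrays, -4.59, -4.92 and -4.48 on iPax7 arrays and -8.52, -6.39 and -5.20 on satellite arrays. All re-isolated arrays were above all satellite arrays, but only 3 iPax3 arrays and 1 iPax7 array were well above background (fitted difference 2.43 ± 0.76, adjusted p 0.195). No satellite array was, and the bound described for Itga11 gave only 1.87-fold for the re-isolated groups together. Over the alternatives other than leaving out an array, the fitted difference ran from 0.01 to 2.54. Itgb5, another partner of alpha v, read -0.43, -3.05 and -6.60, then -0.24, -0.46 and -1.96, then -3.74, -5.65 and -3.76. The iPax7 arrays lay above the satellite arrays (difference 3.50 ± 1.42, adjusted p 0.375), whereas the iPax3 arrays spread across both.

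Itgb3, the beta chain of the vitronectin and platelet fibrinogen receptors, read 6.85, 6.70 and 6.45 on iPax3 arrays, 7.34, 6.45 and 6.67 on iPax7 arrays and 6.79, 7.87 and 8.44 on satellite arrays. It varied less on the re-isolated arrays than on the satellite arrays, and its difference of -0.95 ± 0.60 did not pass (adjusted p 0.469). Itgb8, which with alpha v also binds latent TGF-beta, read -3.35, -3.55 and -1.26, then -2.69, -3.20 and 0.28, then -4.10, 0.32 and -3.80. Each group held 1 array well above its other 2 (difference 0.23 ± 1.21). Itgb2, the leukocyte beta chain, Itgb4, the hemidesmosome chain that pairs with alpha 6, and Itgb7, a gut-homing chain of lymphocytes, differed by 0.21 ± 0.80, 0.02 ± 0.80 and -0.41 ± 0.70. Itgb1, the partner of most collagen and laminin receptor chains and no member here, differed by 4.33 ± 1.80 (adjusted p 0.305), with satellite replicate 3 at -6.73 and satellite replicates 1 and 2 at 2.17 and 2.43.

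Of the 18 tested cadherins, none was called by the probe with the highest mean, which stood for each gene. The type I classical cadherins had a median difference of -0.59 over 4 genes. Cdh2, the N-cadherin of muscle, neural and mesenchymal cells, read -1.87, -1.97 and -1.67 on iPax3 arrays, -2.27, -1.89 and -0.61 on iPax7 arrays and -1.90, -3.00 and 0.05 on satellite arrays. The satellite arrays lay on both sides of the re-isolated ones (difference -0.10 ± 0.77, adjusted p 0.965). A further Cdh2 probe differed by -2.69 ± 1.12 (adjusted p 0.327). Cdh1, the epithelial E-cadherin, was well above background on 3 re-isolated arrays and no satellite array, with overlapping values, and Cdh3, the P-cadherin, differed by -1.08 ± 0.98. Cdh15, the M-cadherin of satellite cells and no member here, differed by -4.25 ± 0.93 and did not pass (adjusted p 0.0764).

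Cdh4, the R-cadherin, gave different answers by probe. All 3 of its probes were kept, and those whose results differ most are printed 5′ to 3′ as on the array, since they read different stretches of the same transcript. Probe A_51_P238455 starts at base 2074 of the transcript (chr2:179820175-179820234, plus strand, mm8) and A_52_P181943 at base 817 (chr2:179776668-179776727, plus strand, mm8). No annotation of that build was used here, so exons are not named.
Cdh4 A_51_P238455: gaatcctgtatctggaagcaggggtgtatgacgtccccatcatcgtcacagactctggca
Cdh4 A_52_P181943: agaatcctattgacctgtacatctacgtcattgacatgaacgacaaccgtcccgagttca
The first, which stood for the gene, read -1.71, -1.04 and -2.63 on iPax3 arrays, -2.10, -1.48 and -0.53 on iPax7 arrays and -1.18, 0.22 and 0.47 on satellite arrays. Those groups overlapped, and the difference was -1.42 ± 0.69 (adjusted p 0.366). The second read -5.67, -7.10 and -7.34, then -6.21, -6.55 and -7.40, then 1.36, -0.37 and 0.32. It was well above background on all 3 satellite arrays and on no re-isolated array, at least 41.3-fold higher in satellite cells. Fitted with each of 32967 probes on its own, its difference was -7.15 ± 0.71 (adjusted p 0.00302), and it passed against iPax3 (-7.14, adjusted p 0.0111) and iPax7 (-7.16, adjusted p 0.00807). In that fit 0.385% of probes were called for iPax3, 0.434% for iPax7 and 0.758% for both. The remaining probe, A_52_P402897, differed by -1.73 ± 1.05 for both groups (adjusted p 0.479). Its iPax3 arrays lay below all its satellite arrays (difference -3.00 ± 1.21, adjusted p 0.377), whereas iPax7 differed by -0.46 ± 1.21. Probe A_52_P181943 was singled out after its values were seen. It passed the filter only through the satellite arrays, where it is high, so its call is no separate support for a difference.

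Type II cadherins had a median difference of -0.06 over 10 tested genes, with 2 positive and 8 negative. Cdh11, the cadherin of mesenchymal cells and fibroblasts, read 4.81, 4.0 and 5.34 on iPax3 arrays, 4.61, 4.34 and 4.62 on iPax7 arrays and 3.09, 4.18 and 1.76 on satellite arrays by the probe that stood for it. Only satellite replicate 2 reached into the re-isolated range (difference 1.61 ± 0.68, adjusted p 0.31). That probe, A_52_P683146, starts at base 1249 (chr8:105557135-105557194, minus strand, mm8) and is shown because the other probes, which start at bases 3155 and 3578, gave larger differences.
Cdh11 A_52_P683146: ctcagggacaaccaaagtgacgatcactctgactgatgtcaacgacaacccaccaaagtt
Probe A_51_P506204 read 0.05, 0.59 and 0.79 on iPax3 arrays, -6.39, -1.37 and -2.69 on iPax7 arrays and -6.56, -5.01 and -5.14 on satellite arrays (difference 4.07 ± 1.06, adjusted p 0.144). Probe A_52_P437795 read -1.63, -0.75 and -0.31, then -1.20, -5.38 and -0.33, then -8.89, -6.24 and -6.85, and was well above background on no satellite array (difference 5.72 ± 1.16, adjusted p 0.0681). All 3 probes had positive differences, of different size. With the mean of its probes in place of 1 probe, Cdh11 was called for both groups together (3.80, adjusted p 0.0322) and for iPax3 (4.73, adjusted p 0.0364), and Cdh4 for both together (-3.43, adjusted p 0.0361). These averages include A_52_P437795 for Cdh11 and A_52_P181943 for Cdh4, which were well above background on no array of the dim group. Their sizes therefore rest in part on readings below background.

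**Figure D2:**
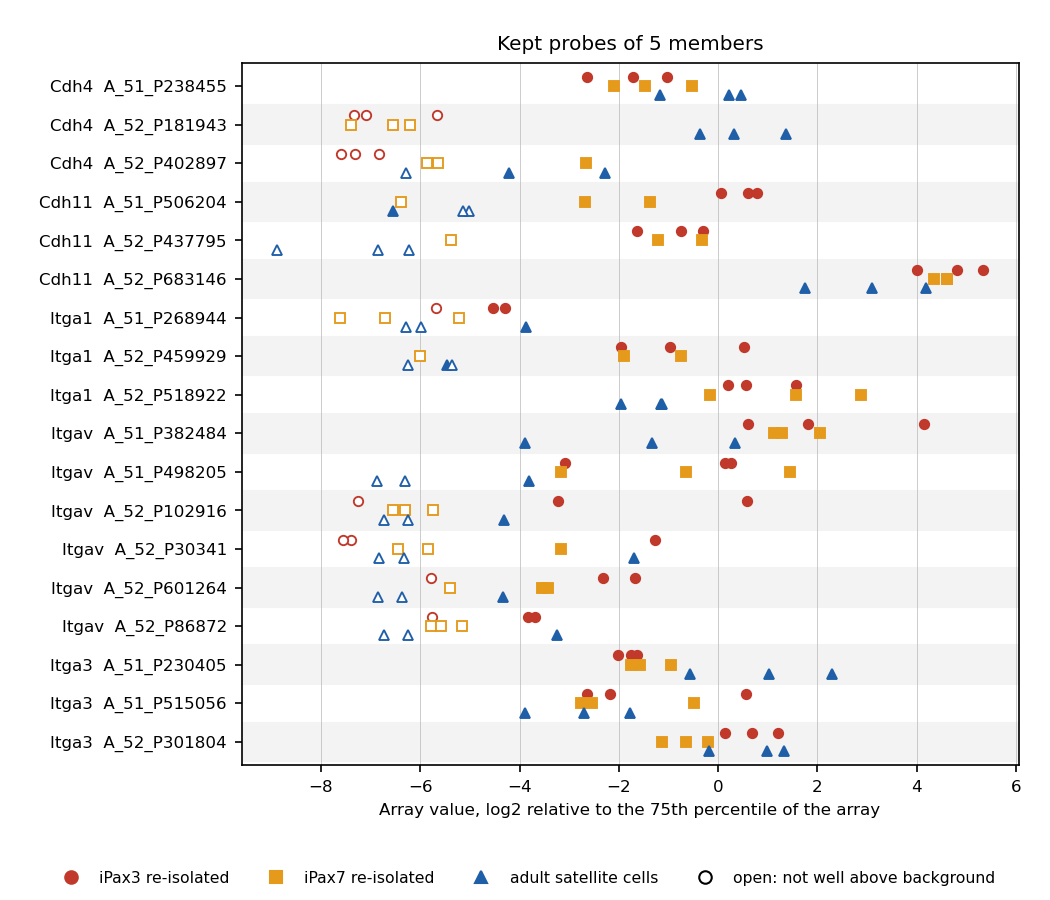
Values of every kept probe of Cdh4, Cdh11, Itga1, Itgav and Itga3 on the 9 arrays (x axis, log2 scale with the 75th percentile of each array at 0), with open symbols where the probe was not well above background; these 5 genes were picked after their values were seen. Probe A_52_P181943 of Cdh4 has the satellite arrays between -0.37 and 1.36 and every re-isolated array open. On the other Cdh4 probes the re-isolated arrays together overlap with the satellite arrays, although the iPax3 arrays of A_52_P402897, all open, lie below its satellite arrays.

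Further type II cadherins did not pass. Cdh22, a brain cadherin, read -1.94, -1.71 and -2.65 on iPax3 arrays, -1.71, -2.34 and -1.57 on iPax7 arrays and -1.03, -0.57 and -0.79 on satellite arrays. All re-isolated arrays lay below all satellite arrays without passing (difference -1.19 ± 0.55, adjusted p 0.34). Cdh6, a cadherin of the developing kidney and nervous system, read -2.55, -1.85 and 1.47, then -1.69, -2.63 and -2.17, then -1.98, -1.14 and 3.47. It had 1 high array in iPax3 and 1 in satellite cells (difference -1.69 ± 1.31). Cdh7, known from neural crest, read -2.04, -3.21 and -2.97, then -6.39, -2.82 and -2.61, then -5.04, -2.99 and -6.02, and its groups overlapped (difference 1.34 ± 1.02, adjusted p 0.556).

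Cdh24, a type II cadherin, had the largest difference between the lines by the probe that stood for each gene. Fitted singly, Cdh11 probe A_51_P506204 had a larger one, -3.96 ± 1.23 for iPax7 minus iPax3 (limma, adjusted p 0.934). So had Itga8 probe A_52_P658911, at -3.38 ± 1.02 (adjusted p 0.907). Cdh24 read -1.51, -0.49 and -0.41 on iPax3 arrays, -2.59, -3.69 and -5.31 on iPax7 arrays and -2.77, -1.92 and -1.34 on satellite arrays. The iPax7 arrays were all below the iPax3 arrays (difference -3.06 ± 0.86, adjusted p 0.89), and the satellite arrays lay between, overlapping with both. With the slide as a fixed block over the 6 re-isolated arrays the difference was -1.79. Slide 1 was the only slide with both lines, so this value sets iPax7 replicate 1 alone, at -2.59, against the 3 iPax3 arrays, all of which it stood below. By the standing probes, 3 of the 40 members (Cdh24, Itga3 and Itgb6) had iPax7 arrays all below the iPax3 arrays. None had them all above, which makes 7.5% in all beside 9.35% of all genes.

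Cdh9, Cdh10, Cdh12, Cdh18 and Cdh20, most of them known from neurons, had differences of -0.00, -0.59, -0.08, -0.02 and -0.03 between re-isolated and satellite cells. Their SEs ran from 0.59 to 0.99, and none of these differences exceeded its own SE. The lowest adjusted p among these 5 was 0.802.

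The remaining cadherins, which are more distant relatives, had negative differences for all 4 tested genes, none of them called. Cdh23, whose protein forms the tip links of hair cells, read -2.36, -1.36 and -1.32 on iPax3 arrays, -1.13, -1.98 and -2.25 on iPax7 arrays and -0.15, 0.27 and 0.87 on satellite arrays. All 6 re-isolated arrays were below all 3 satellite arrays (difference -2.06 ± 0.60, adjusted p 0.162). A further Cdh23 probe gave -1.02 ± 0.97. Cdh13, a cadherin held by a lipid anchor, Cdh16, known from kidney, and Cdh26 differed by -0.44 ± 0.73, -1.0 ± 0.56 and -0.67 ± 1.0, and Cdh26 was well above background on 3 arrays only.

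**Figure D3:**
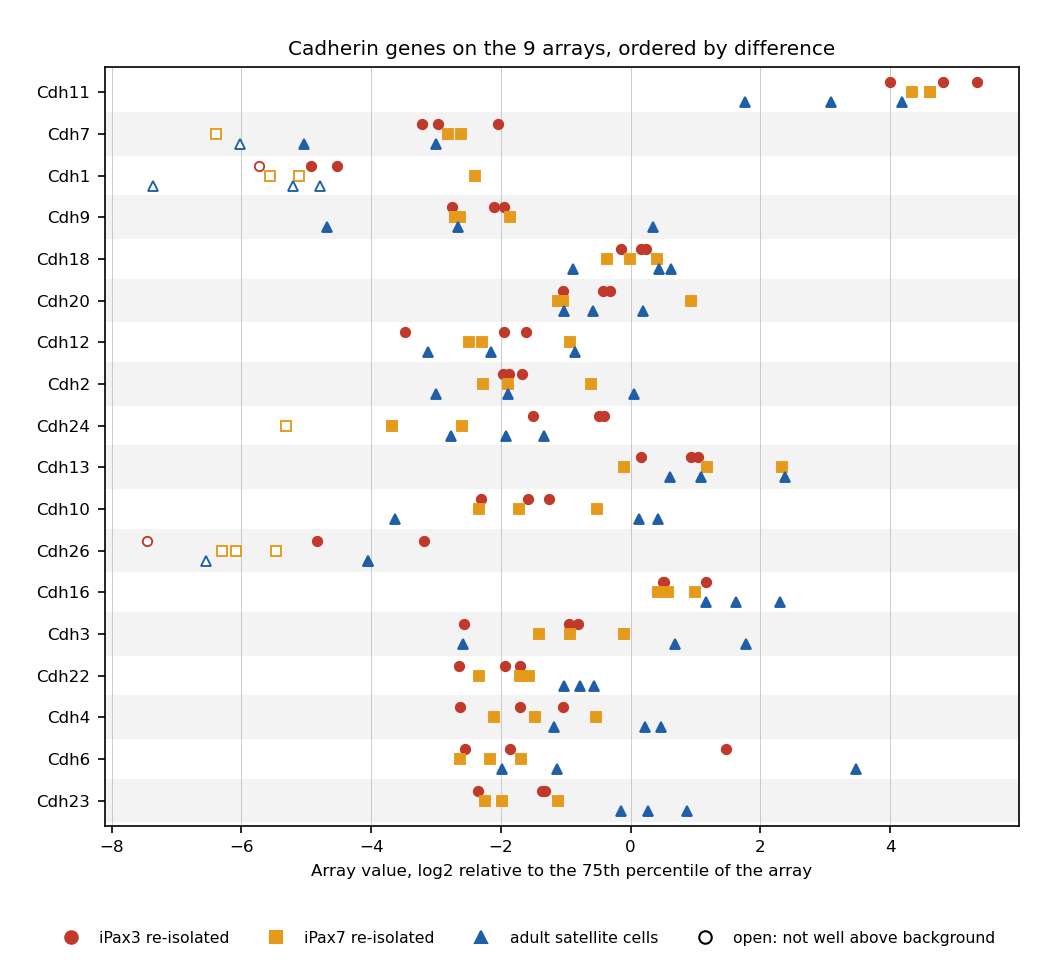
Values of the 18 tested cadherin genes on the 9 arrays (x axis, log2 scale with the 75th percentile of each array at 0), ordered by the difference between re-isolated and satellite cells, with open symbols where the probe was not well above background. Cdh23 and Cdh22 have all 6 re-isolated arrays below the 3 satellite arrays, and Cdh24 has the iPax7 arrays at -2.59 and below.

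Counted over the 40 tested members, the 6 re-isolated arrays lay above the 3 satellite arrays for 4 genes (Itga11, Itgav, Itga1 and Itgb6) and below them for 3 (Itga6, Cdh23 and Cdh22). These are 17.5% of the members, beside 8.5% of all genes (4.14% above and 4.36% below). Itga11 and Itgb6 were well above background on no satellite array, so they passed the filter only through the arrays where they are high. Their place in this count is therefore no separate support for a difference. For iPax3 alone the groups did not overlap for 22.5% of members and 19% of all genes, and for iPax7 alone for 27.5% and 16.5%. The differences of both groups together were positive for 16 members and negative for 24, and 8 members had an unadjusted p under 0.05 beside 3491 genes in all (15.4%).

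**Figure D4:**
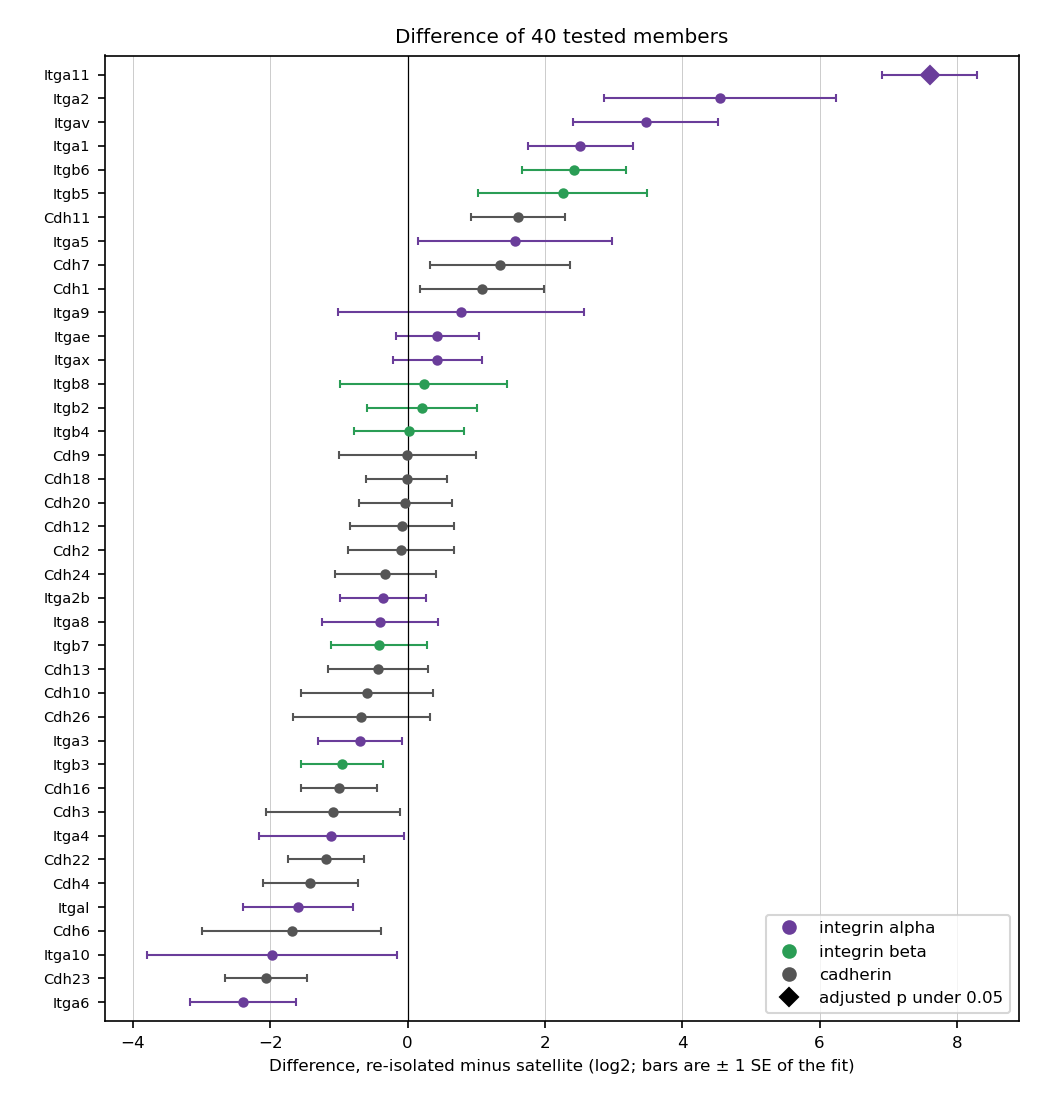
Difference of each of the 40 tested members between both re-isolated groups and satellite cells (x axis, log2; bars are 1 SE of the limma fit, 6 arrays against 3), with a diamond where the adjusted p is under 0.05. Itga11 at 7.60 is the only diamond, the next values are 4.55 for Itga2 and 3.47 for Itgav, and the lowest is -2.40 for Itga6. Itga11, Itga2, Itgb6 and Cdh1 were well above background on no satellite array, so the sizes of their differences rest on readings below background there.

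Several members have more than 1 kept probe, and those probes did not always point the same way. Itga1 had further probes at 3.85 ± 1.15 and -0.29 ± 0.84, against 2.51 for the one that stood for it. Itgav had 5 further probes with differences from -0.33 to 4.82, the highest with an adjusted p of 0.14. Itga3 had probes at -2.53 ± 0.74 and 1.12 ± 0.96, and Itgae had a further probe at -4.53 ± 1.62, opposite to its standing value of 0.43. Cdh7 had a further probe at -1.27 ± 0.63, opposite to 1.34. Itga4 (1.39), Itga8 (0.96), Itgal (0.64), Itgax (-1.24), Itgb3 (0.93), Itgb4 (-0.22), Cdh10 (1.43) and Cdh20 (0.55) each had a kept probe opposite to the standing one. None of these passed among the probes fitted singly, so that for these genes size and in part direction rest on the probe. The kept probes of Itga2, Itga6, Cdh2, Cdh4, Cdh11, Cdh18 and Cdh23 shared the direction of the standing one.

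Among the proteins that integrins bind, most of them matrix proteins, 8 of 22 tested genes rose in the re-isolated groups together and none fell, beside 0.802% of all genes called higher. The count ran from 4 to 9 over the alternative settings, and it was 4 without any one of iPax3 replicate 1 or 3, iPax7 replicate 2 or 3, or satellite replicate 2 or 3, and 5 without iPax3 replicate 2 or iPax7 replicate 1. Lama4, a laminin chain of basement membranes, rose by 8.02 ± 0.71 (adjusted p 0.00147), and Postn, the matrix protein periostin, by 7.37 ± 0.65 (adjusted p 0.00147). Icam1, the ligand of leukocyte integrins, rose by 7.05 ± 1.11 (adjusted p 0.0242). Col1a1, Col1a2 and Col3a1, the fibrillar collagens that alpha 11 and alpha 2 chains bind, rose by 6.30 ± 0.65, 5.99 ± 0.64 and 5.11 ± 0.93. These 3 collagen genes also stand on the fibroblast marker list given above. Thbs1, thrombospondin, rose by 4.01 ± 0.69 (adjusted p 0.0346) and Tnc, tenascin C, by 3.67 ± 0.69 (adjusted p 0.045). For iPax3 alone 6 ligands rose, beside 0.361% of all genes called higher, and for iPax7 alone 4, beside 0.436%. Fn1, fibronectin, differed by 3.06 ± 0.70 and did not pass (adjusted p 0.0869).

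Inside the cell, 0 of 24 tested adaptor and focal adhesion genes were called for both groups together. Pxn, paxillin, had the largest difference at 3.54 ± 0.76 (adjusted p 0.0751). Tns3, a tensin that binds beta chain tails, differed by 2.99 ± 0.66 for both groups (adjusted p 0.0783) and rose in iPax3 by 4.55 ± 0.76 (adjusted p 0.0467), a call that was lost when any one of the arrays other than satellite replicate 1 was left out. It read 1.24, 2.12 and 2.26 on iPax3 arrays, -1.86, -1.91 and 0.06 on iPax7 arrays and -2.90, -2.90 and -2.21 on satellite arrays, and the difference between the lines was -3.11 ± 0.76 (adjusted p 0.82). Of 14 catenins and cadherin partners, 0 were called in any comparison. Pkp4, a plakophilin of the p120 catenin family, had -3.46 ± 0.97 (adjusted p 0.154) and Afdn, the junction protein afadin, 2.81 ± 1.06 (adjusted p 0.266).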

How the data were processed

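RNA was measured on 9 single-colour Agilent arrays, 3 per group, with groups taken from the sample titles. Per the file headers, the intensity values of the scanner tables come from Feature Extraction version 10.5.1.1 of Agilent, after detrending and background subtraction, with positions on the build mm8. They held 45018 spots per array. The authors' deposited value table holds log2 values of 31918 spots; per the submitters' processing notes limma was used, with no version or step. Its column medians were 7.70, 7.71, 7.68, 7.69, 7.70, 7.67, 7.68, 7.63 and 7.66 and each column correlated with that array's log2 mean signal at 0.988 to 0.999, so its scale is uncentred log2, and its normalization stays unknown. It served as an alternative.

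The processed signal was taken as log2 minus the 75th percentile of the non-control spots of each array. Outlier spots were left out, 60 to 342 per array, and no spot was saturated. Well above background is the scanner software's own flag, and it held for 56.6% to 79.7% of probes per array. Probes well above background on at least 3 arrays were kept (32985), with at least 7 values in all and 2 per group, and the probe with the highest mean stood for its gene. Of the probes, 24310 were named through their accession, 6264 had a current symbol, 2425 an older symbol and 102 a symbol kept by the rule for the members, and 8073 kept the name of the file. The values of all 3 groups entered a single limma 3.58.1 fit in R 4.3.3 (lmFit, eBayes, 6 residual and 3.2 prior degrees of freedom), with Benjamini-Hochberg adjustment over all genes and a threshold of 0.05. Values after ± are standard errors of the fit. Bounds written as at least N-fold raise each array of the dim group to the lowest signal well above background on it and hold for this scaling and probe. The number of arrays limits the precision: on simulated data of 22564 genes, for both re-isolated groups against satellite cells, 0% of changes of 2 log2 units, 50% of 4, 74% of 6 and 84% of 8 were recovered.

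Arrays were read in full for every member that was called, that did not overlap between re-isolated and satellite cells, or that had one of the 2 largest differences of its kind in a comparison, and for members with known roles in muscle or mesenchyme. The members and the lists were chosen with earlier results of these data known. Figures were drawn with matplotlib 3.10.9. Alternatives covered background correction, normalization, scaling, the filter, the choice of probe, the deposited table, the blocks and leaving out each array.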

Additional observations from a re-analysis of the deposited data

Results flagged for a closer look

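Cdh24 had every iPax3 array above the mean of the satellite arrays and every iPax7 array below it, with group differences of 1.21 for iPax3 (limma, adjusted p 0.569) and -1.85 for iPax7 (adjusted p 0.422), neither of which passed. Both groups overlapped with the satellite arrays. The difference between iPax7 and iPax3 was -3.06 ± 0.86 (limma, adjusted p 0.89), with all 3 iPax7 arrays below all 3 iPax3 arrays, and it did not pass the test. Opposite signs on every array were what drew attention to the gene. The difference was -1.63 with normexp background correction and -1.79 with the slide as a fixed block. The latter sets iPax7 replicate 1 alone against the 3 iPax3 arrays, since no other iPax7 array shared a slide with them. On iPax7 replicates 1 to 3 the probe was well above background on 2 arrays.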

How the results depend on the processing

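The call of Itga11 for both re-isolated groups together, its adjusted p and its direction were recomputed under every alternative in which the gene could be tested, and it stayed called in each. For iPax3, 0 of 40 members were called with normexp background correction and 0 with the slide as a random block, 2 with a gene's probes averaged (Itga11 and Cdh11) and 2 when every kept probe was fitted separately (Itga11 and Cdh4). For iPax7, 2 were called when every kept probe was fitted separately. For both groups together 3 were called with averaged probes and 2 with every kept probe, the latter an alternative chosen after seeing the data. The Cdh4 calls by single probe rest on A_52_P181943, which passed the filter only through the satellite arrays. With only probes above background on all arrays, 31 members were left, without Itga11, and 0 passed for iPax3, iPax7 or both together. Leaving out each array in turn left 1 member called in each comparison with satellite cells (range 1 to 1) and 0 between the lines. With the replicate number as a block, 1 member passed in each comparison with satellite cells and 0 between the lines, while the calls over all genes went from 98 to 37 for iPax3, 121 to 55 for iPax7 and 236 to 115 for both. Arrays of the same number correlated in their deviations from group means at -0.129 to 0.0627, and arrays of different numbers at -0.0942 to 0.177. With 3 arrays per group this cannot tell whether the numbers pair the samples. Over all genes the calls ran from 14 (slide as a random block) to 451 (without satellite replicate 1) for iPax3, from 35 to 490 for iPax7 and from 43 to 692 for both. Scaling by the array median moved the median of all genes from -0.16 to -0.47 for both groups together, and that of the members from -0.09 to -0.40. Of the alternative values for single-member differences named in the text, 1771 were counted as unchanged. A further 44 had not passed and moved by 1 SD or more, 3 passed newly and 2 lost the call. A difference that had not passed counted as unchanged within 1 SD of the reported one. A called difference counted as unchanged whenever it was called again, whatever its size. Itga11 for both groups together was counted so, although it fell from 7.60 to 4.05 with normexp background correction. With the deposited value table it fell to 5.40. No called difference changed sign. Of 88 differences, 37 that had not passed changed sign under at least 1 alternative (90 of 1820 values), among them Cdh2 and Itgb8 against satellite cells and Itga9 between the lines. With 3 arrays per group, 0% to 2% of changes of 2 log2 units were recovered in simulated data, and 9 of 40 members were below background on some arrays.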
